A study of Mus musculus with 6 samples.

Results

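Genes of the Eya, Six-type and Dach families were examined in mouse embryonic spleens of a Tlx1 series. The set holds 9 genes, Eya1, Eya2, Eya3, Eya4, Six2, Six4, Six5, Dach1 and Dach2, of 18710 genes tested, and each was taken by its gene symbol as the brightest probe set carrying that symbol alone. Each of the 9 had 1 such probe set, and all 9 passed the filter on low values. The family was chosen by the measured fall of Eya1 in homozygous spleens, which was among the largest of all genes. The differences of its members in that same comparison are therefore given as a description, with estimates and errors but no p-value.

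Total RNA was measured on 3 Affymetrix arrays of Tlx1 homozygous spleens and on 3 arrays of Tlx1 heterozygous spleens, all at E13.5. The labels give the zygosity, and not the allele, the strain or whether a replicate was 1 embryo or a pool. Homozygous spleens are taken to carry 2 altered Tlx1 alleles and heterozygous spleens 1, so no wild-type spleen enters the comparison. Nothing in the labels says that replicates were separate animals, so the errors cover the spread between arrays, and part of that spread may be technical. Each SE comes from the eBayes step of limma, which draws a gene's own spread toward that of all genes. It can thus be larger or smaller than the gene's own arrays alone would give.

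Tlx1, the homeobox gene altered in these embryos, had intensities of 171, 209 and 200 on the homozygous arrays, against 825, 706 and 719 on the heterozygous arrays. Every homozygous array was below every heterozygous array, in the direction of the labels. The position of the Tlx1 probe set relative to the alteration is not given. Array medians lay between 106 and 110 intensity units, and the correlation of log2 values across genes was 0.995 to 0.997 for arrays of the same group and 0.989 to 0.993 for arrays of different groups. Of 14 spleen mesenchyme markers tested, 3 were higher and 6 lower in homozygous spleens at an adjusted p below 0.05 in limma. Over all genes tested, 10.4% were higher and 6.56% lower by the same measure. Of these markers, 5 were called in all without homozygous replicate 1, and 4 with the level of Y-linked genes in the model. The summed intensity of the list was 19764 to 20236 in homozygous and 20573 to 21179 in heterozygous spleens. Nkx2-5, a homeobox gene of the spleen primordium, had intensities of 268, 182 and 278 on the homozygous arrays, against 679, 596 and 569 on the heterozygous arrays, so that signal for this tissue was found on every array.

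As background, EYA proteins are transcriptional coactivators that also carry a phosphatase domain. They do not bind DNA themselves and reach their targets through SIX-type proteins, which are homeodomain transcription factors. DACH proteins are nuclear corepressors related to SKI and can turn SIX-EYA complexes from activation to repression. The circuit is named after the Drosophila eye genes eyes absent, sine oculis and dachshund, and in mammals it is known for its part in the growth of kidney, inner ear and skeletal muscle, often together with PAX proteins.

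In the comparison of homozygous with heterozygous spleens, Eya1 and Eya2 were lower past the threshold of an adjusted p of 0.05 over all genes in limma, and none of the 9 genes was higher past it. At an unadjusted p below 0.05 in limma, 3 were lower and 2 higher, beside 2515 lower and 3867 higher of all 18710 genes. At the adjusted threshold, the 2 of 9 members stand beside 6.56% of all genes tested that were called lower. Of all genes, 10.4% were called higher and 17.0% in either direction. The rule used this contrast, so nothing is read from the count. The median log2 fold change of the 9 genes was −0.05, against 0.02 over all genes tested, and 3 estimates were above 0 and 6 below. For 5 of the 9 genes the groups did not overlap, as was so for 38.3% of all genes.

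Eya1, a coactivator required for kidney and ear formation in mice, had intensities of 94.4, 96.3 and 91.6 on the homozygous arrays, against 385, 373 and 379 on the heterozygous arrays. The 2 groups were far apart and each was narrow. The mean was 94.1 ± 2.37 in homozygous and 379 ± 6.29 in heterozygous spleens (SD, n = 3 each). Its log2 fold change, homozygous minus heterozygous on the scale log2(intensity + 1), was −1.998 ± 0.06 (SE), a 3.996-fold fall that ranked 11 among the falls of all 18710 genes. The spread of Eya1 within groups was small, with a residual SD of 0.03 on the log2 scale that was at the 3.19 percentile of all genes. In spleens measured as bulk tissue, fewer cells that express Eya1 and less Eya1 RNA per cell cannot be told apart.

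Eya2, the paralog that acts in muscle precursors and placodes, had intensities of 139, 136 and 149 on the homozygous arrays, against 177, 182 and 167 on the heterozygous arrays. The groups did not overlap, and the fall was far smaller than that of Eya1. Its log2 fold change was −0.31 ± 0.07 (SE), which corresponds to a 1.24-fold lower intensity. The estimate lost its place past the threshold without heterozygous replicate 1 (−0.30), without heterozygous replicate 2 (−0.28) and without homozygous replicate 1 (−0.30).

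Eya3, the most broadly expressed paralog in mouse tissues, had intensities of 792, 857 and 865 on the homozygous arrays, against 897, 941 and 953 on the heterozygous arrays. All homozygous values were below all heterozygous values, but by a narrow margin, and the log2 fold change of −0.15 ± 0.06 (SE) did not pass the threshold. Eya4, known for its role in hearing, had intensities of 193, 226 and 204 on the homozygous arrays, against 184, 204 and 243 on the heterozygous arrays. Its groups overlapped fully, with a log2 fold change of −0.01 ± 0.11 (SE) whose sign changed under several settings given in the closing section. The Eya paralogs thus had estimates between −1.998 and −0.01, with only Eya1 and Eya2 past the threshold, and differences between the paralogs' estimates were not tested.

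**Figure D1:**
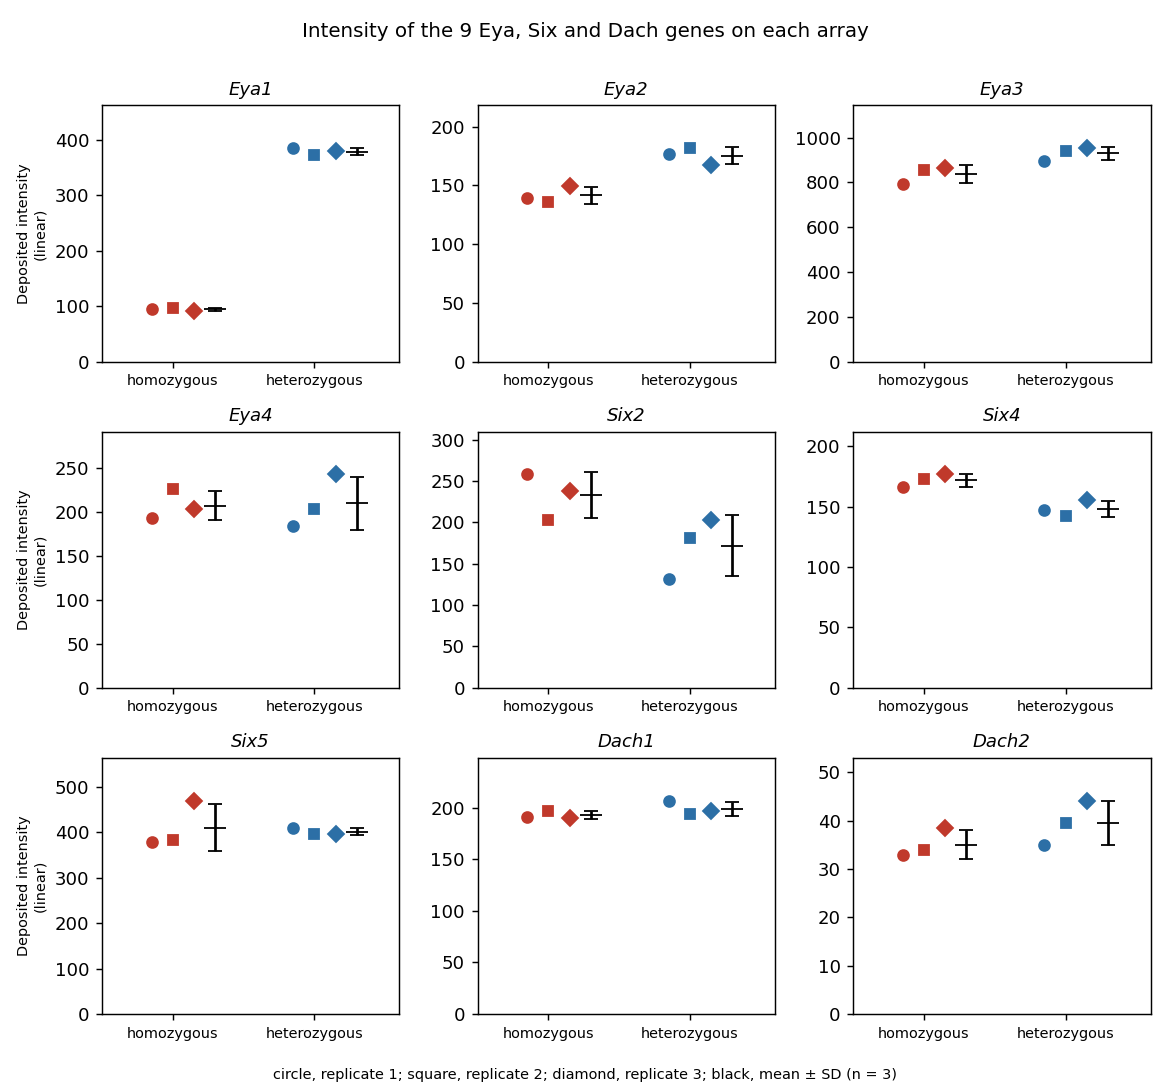
Deposited intensity on a linear scale (vertical axes, each starting at 0) for the 9 genes on the 3 homozygous and 3 heterozygous arrays, 1 point per array, with the mean ± SD in black beside each group. Eya1 lies at 91.6 to 96.3 on the homozygous and 373 to 385 on the heterozygous arrays, while the 2 groups overlap for Eya4, Six5, Dach1 and Dach2. Axis ranges differ between genes, and a level is not comparable between probe sets.

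Of the Six-type members, Six2, which maintains nephron progenitors in the kidney, had intensities of 258, 203 and 238 on the homozygous arrays, against 132, 181 and 203 on the heterozygous arrays. The highest heterozygous value, 203.0, and the lowest homozygous value, 203.2, nearly met. The mean was 233 ± 27.8 in homozygous and 172 ± 36.4 in heterozygous spleens (SD, n = 3 each), and the log2 fold change was 0.45 ± 0.15 (SE), without passing the threshold. Six2 was among the more variable genes on these arrays, with a residual SD of 0.26 on the log2 scale at the 98.4 percentile. The estimate was 0.58, past the threshold, without heterozygous replicate 3, and 0.27 without heterozygous replicate 1, where it did not pass.

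Six4, which acts in muscle formation, had intensities of 166, 173 and 177 on the homozygous arrays, against 147, 142 and 155 on the heterozygous arrays. Its groups did not overlap, the spread was small, and the log2 fold change of 0.21 ± 0.06 (SE) did not pass the threshold in the fit over all genes. It did pass under 4 of 19 other settings, with estimates of 0.19 to 0.23. Six5, which lies next to the gene of myotonic dystrophy, had intensities of 379, 383 and 469 on the homozygous arrays, against 410, 397 and 395 on the heterozygous arrays. Homozygous replicate 3 alone lay above the heterozygous values, and the log2 fold change of 0.03 ± 0.09 (SE) became −0.07 without it. Six2, Six4 and Six5 thus had estimates at or above 0.03, with none past the threshold.

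Upstream sequence was taken from RefSeq windows on the build GRCm38.p6 for the 7 members that these windows name, 10 windows in all with alternative start sites. Eya1 and Eya2, the members past the threshold, had no window and were not searched. In each window the 250 bases before the start were searched on both strands for 4 motifs. TCAGGTT, a SIX-type site, was found in 1 of 10 member windows and in 3.49% of 32851 windows of the same length. TGATAC, another SIX-type site, was in none of the 10 and in 4.64% of all windows. TAATTA, a homeodomain site, was likewise in none of the 10 and in 4.84% of all windows. AGGTCA, one arm of a retinoic acid receptor site, was in none of the 10 and in 14.0% of all windows. The 1 match lies 97 bases before a start of Six4, on chr12:73113324-73113353 of the minus strand, and the stretch around it is shown with the match, the reverse complement of TCAGGTT, in capitals. The upstream 250 bases of Six2, the member with the highest estimate, on chr17:85688255-85688504 of the minus strand, are shown for comparison and held none of the 4 motifs.
Six4 site: ggcctgggggaAACCTGAtcggccagatcc
Six2 upstream: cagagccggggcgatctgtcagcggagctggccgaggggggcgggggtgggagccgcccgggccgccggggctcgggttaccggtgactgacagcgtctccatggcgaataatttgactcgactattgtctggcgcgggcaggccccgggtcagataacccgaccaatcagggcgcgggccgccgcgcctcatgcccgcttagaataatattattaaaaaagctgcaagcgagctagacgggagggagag
The Six2 window had a GC content of 64.8%, against a median of 52.4% over all windows. A match is a string of letters and shows no binding, and no protein was mapped in these spleens here.

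Neither Dach gene passed the threshold. Dach1, a corepressor expressed in many embryonic tissues, had intensities of 191, 197 and 190 on the homozygous arrays, against 207, 194 and 197 on the heterozygous arrays, with a log2 fold change of −0.05 ± 0.06 (SE). Its groups overlapped, and its residual SD of 0.04 was among the smallest, at the 7.14 percentile. Dach2, its X-linked paralog, was dim, at 32.8, 33.9 and 38.5 on the homozygous arrays, against 35.0, 39.6 and 44.1 on the heterozygous arrays. The groups overlapped here as well, with a log2 fold change of −0.17 ± 0.10 (SE). An estimate that does not pass the threshold does not show that the groups are alike.

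**Figure D2:**
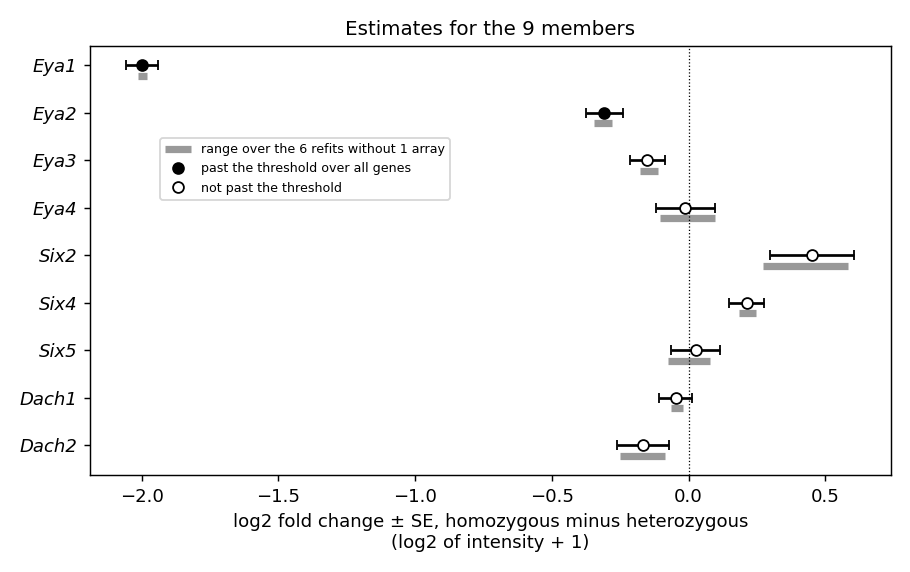
Log2 fold change of each member, homozygous minus heterozygous (horizontal axis, log2 of intensity + 1), with its SE as error bars, filled where it passed the threshold over all genes, and with a grey bar for the range over the 6 refits that each left out 1 array. Eya1 at −1.998 stands apart from the other 8 members, which lie between −0.31 and 0.45.

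Within groups the members did not vary alike from array to array. On heterozygous replicate 1 the lowest value of the group was found for Eya3, Eya4, Six2 and Dach2, which is 4 of 9 members, and the highest for Eya1, Six5 and Dach1. Heterozygous replicate 3 had the highest value of its group for 5 of 9 members. Homozygous replicate 1 had the lowest value of its group for 5 of 9, and the highest for Six2 alone. The level of 3 Y-linked genes was averaged on the scale log2(intensity + 1) and turned back to a linear scale. It was 298, 278 and 269 on the homozygous arrays, against 433, 270 and 508 on the heterozygous arrays. The part of the Y-linked level in the members' values was not tested.

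Genes around Eya1 in the RefSeq gene order did not share its fall. The 3 tested genes on one side were Tram1, Lactb2 and Xkr9, and the 3 on the other were Msc, Gm9947 and Trpa1, and all 6 had overlapping groups. Msc, which encodes the bHLH factor musculin and is the nearest tested gene on its side, had a mean intensity of 75.1 ± 2.59 in homozygous and 73.2 ± 5.09 in heterozygous spleens (SD, n = 3 each), with a log2 fold change of 0.04 ± 0.07 (SE) and an adjusted p of 0.732 in limma. Xkr9, the nearest on the other side, was dim, at 14.8 ± 0.984 and 14.5 ± 1.40 (SD, n = 3 each) in homozygous and heterozygous spleens. Lactb2 had a log2 fold change of −0.17 ± 0.13 (SE; adjusted p = 0.393 in limma), and passed the threshold without homozygous replicate 2 (adjusted p = 0.0411). The remaining 3 neighbours had estimates of −0.03 (Tram1), 0.10 (Gm9947) and −0.06 (Trpa1).

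The genes with the array profile most like that of Eya1 were found by the Euclidean distance between log2 profiles over the 6 arrays, each centred on its own mean. The nearest was Robo2, a receptor for Slit guidance proteins, at a distance of 0.16, with intensities of 267, 301 and 276 on the homozygous arrays, against 1104, 1005 and 1079 on the heterozygous arrays. Col8a1, a collagen chain gene, followed at 0.18, then Slitrk6, a neuronal membrane protein gene, at 0.22. Tlx1 itself was the next at 0.27, and Clca3a2 followed at 0.27 as well. Clca3a2 has near-identical paralogs and is uncertain as a single gene. All 5 were past the threshold and lower in homozygous spleens, with log2 fold changes of −2.09 (Clca3a2) to −1.86 (Slitrk6). The measure selects genes with a group difference of the same size, so their fall is part of the choice.

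**Figure D3:**
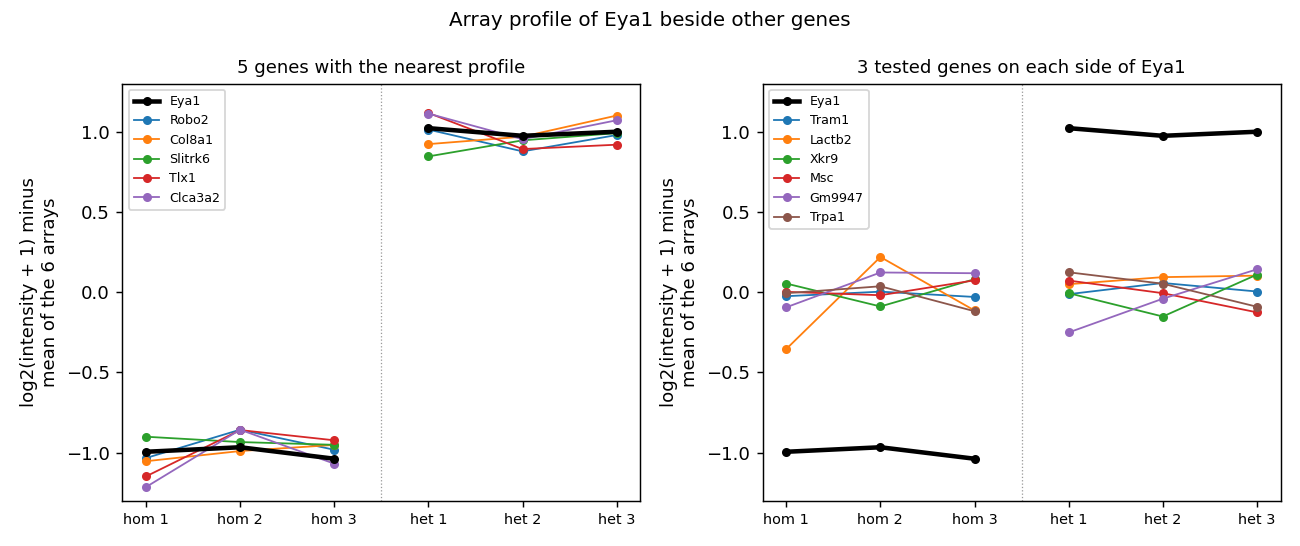
Log2(intensity + 1) minus the gene's mean over the 6 arrays (vertical axis) on each homozygous (hom) and heterozygous (het) array, with Eya1 in black. On the left are the 5 genes of nearest profile, chosen for that likeness, and on the right the 3 tested genes on each side of Eya1 in gene order, whose groups overlap, while Eya1 had a log2 fold change of −1.998.

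Partners of the network moved in both directions. Of 30 tested genes for other Six-type proteins, Pax proteins, Groucho-type corepressors and other cofactors, 4 rose, 3 fell and 23 did not pass. Over all genes, 10.4% were called higher and 6.56% lower. The median log2 fold change of the 30 genes was 0.05, against 0.02 over all genes. The falls were those of 3 Groucho family genes, whose products bind SIX-type proteins or other DNA-binding factors. Tle2 had intensities of 313, 293 and 297 on the homozygous arrays, against 586, 547 and 505 on the heterozygous arrays, a log2 fold change of −0.86 ± 0.07 (SE; adjusted p = 0.000321 in limma). Tle6 fell by 0.46 (adjusted p = 0.0181) and Tle5, a short family member that opposes the others, fell by 0.45 (adjusted p = 0.0122), both in limma. The homozygous arrays were below all heterozygous arrays for these 3 genes. Over all genes, the groups did not overlap in either direction for 38.3%. Tle6 lost its call when heterozygous replicate 1, heterozygous replicate 2 or homozygous replicate 1 was left out (adjusted p = 0.0588 to 0.0650), and Tle5 without homozygous replicate 1 (adjusted p = 0.0503). Tle1, Tle3 and Tle4, named after their values were seen, had estimates of 0.15, 0.03 and −0.04 and did not pass. They lie on chromosomes 4, 9 and 19, while Tle2, Tle5 and Tle6 all lie on chromosome 10. Sobp, a partner gene that rose, is on chromosome 10 as well. The part of this shared chromosome in the falls was not tested.

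The 4 rises were small. Six6, a Six-family gene of eye and pituitary, averaged 60.4 ± 6.17 in homozygous and 44.4 ± 2.09 in heterozygous spleens (SD, n = 3 each), a log2 fold change of 0.43 ± 0.08 (SE; adjusted p = 0.0131 in limma). Its call was lost without homozygous replicate 1 (adjusted p = 0.0568) and with a Y-linked covariate (adjusted p = 0.0714). The other rises were named after their values were seen. Sobp, which encodes a SIX-binding cofactor, had intensities of 142, 145 and 146 on the homozygous arrays, against 112, 107 and 107 on the heterozygous arrays (log2 fold change 0.40). Pax1 (0.38) and Pax9 (0.28) also rose. Six3, a relative of Six6 and likewise named after its values were seen, had an estimate of 0.28 with overlapping groups. The count of partners called ranged from 2 without homozygous replicate 1 to 8 without homozygous replicate 2, and was 4 without heterozygous replicate 2.

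Genes reported as targets of EYA and SIX-type proteins in other tissues included rises and falls. Of 32 tested, 8 rose, 3 fell and 21 did not pass, beside 10.4% of all genes called higher and 6.56% called lower. Their median was 0.14 and 28 estimates were above 0, against a median of 0.02 over all genes, of which 10029 of 18710 had an estimate above 0. Dim genes were among those above 0, such as Myf5, with a mean of 24.9 in homozygous and 21.8 in heterozygous spleens. With a log2 value of at least 6 required on at least 3 arrays, the median over all genes was −0.02. The part of low signal in the targets' estimates was not tested. Osr1, a zinc finger gene of intermediate mesoderm, had intensities of 1207, 1278 and 1158 on the homozygous arrays, against 787, 761 and 759 on the heterozygous arrays, a log2 fold change of 0.66 ± 0.06 (SE; adjusted p = 0.000632 in limma). The chemokine gene Cxcl12 rose by 0.51 (adjusted p = 0.00605) and the growth factor gene Fgf8 by 0.48 (adjusted p = 0.0304), both in limma. Sall1, a zinc finger gene that SIX-type proteins activate in kidney, had intensities of 64.7, 63.0 and 67.3 on the homozygous arrays, against 96.0, 77.5 and 95.1 on the heterozygous arrays, a log2 fold change of −0.45 ± 0.09 (SE; adjusted p = 0.0140 in limma). The groups of these 4 genes did not overlap, as was so for 38.3% of all genes. Fgf8 lost its call when any 1 of heterozygous replicates 1 and 2 and homozygous replicates 1 and 3 was left out (adjusted p = 0.0523 to 0.0941), and Sall1 without homozygous replicate 1 (adjusted p = 0.0546). With the Y-linked covariate neither passed (adjusted p = 0.0642 for Fgf8 and 0.0902 for Sall1). The count of targets called was 3 without homozygous replicate 1, 5 without heterozygous replicate 1, 5 without heterozygous replicate 2, 7 without homozygous replicate 3, 5 with the covariate and 7 after cyclic loess.

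In the pathway of the EYA phosphatase in DNA repair, 2 of 10 tested genes fell and none rose in limma. At an unadjusted p below 0.05, 1 was higher and 2 lower, beside 3867 higher and 2515 lower of all 18710 genes. The 2 genes that fell at the adjusted threshold stand beside the 17.0% of all genes called in either direction. They were H2ax, at −0.31 ± 0.08 (SE; adjusted p = 0.0283 in limma), and Mdc1, at −0.30 ± 0.06 (SE; adjusted p = 0.0124 in limma). H2ax encodes the histone variant from which EYA proteins remove a tyrosine phosphate. The median of the 10 was −0.03. H2ax lost its call when any 1 of heterozygous replicates 1 and 2 and homozygous replicates 1 and 2 was left out (adjusted p = 0.0578 to 0.0984), and after cyclic loess (adjusted p = 0.0518). With the Y-linked covariate neither gene passed (adjusted p = 0.0624 for H2ax and 0.0841 for Mdc1).

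**Figure D4:**
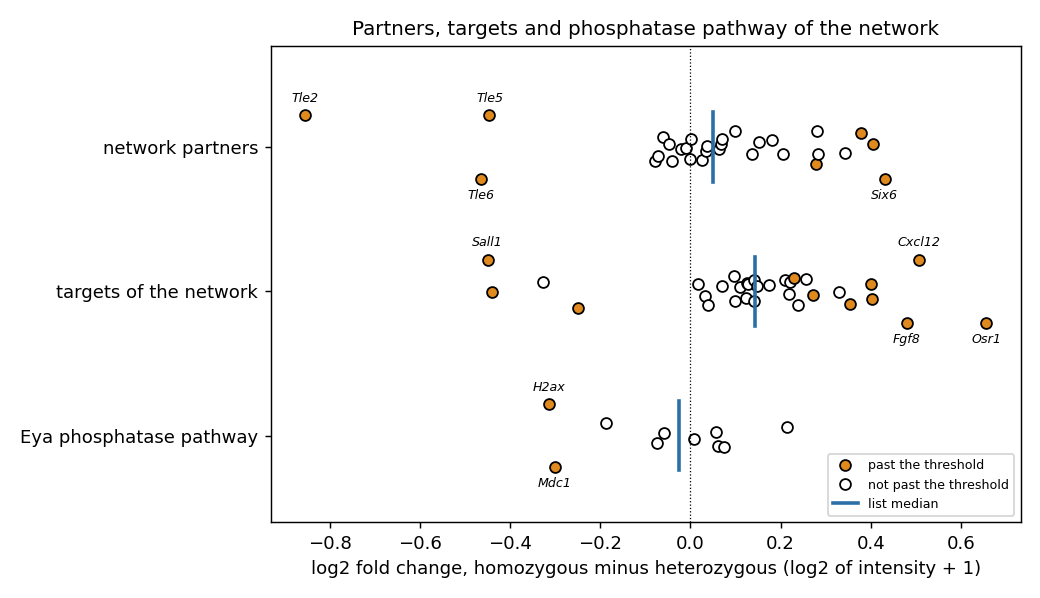
Log2 fold change, homozygous minus heterozygous (horizontal axis, log2 of intensity + 1), of each tested gene in the lists of network partners (30), targets (32) and phosphatase pathway genes (10), filled where it passed the threshold over all genes, with the list median as a bar. The points with names are those the naming rule gives, and the height of a point within a row has no meaning. Tle2 at −0.86 and Osr1 at 0.66 are the outermost points.

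Markers of other tissues in which the network is known were counted in the same way, beside the 17.0% of all genes called in either direction. Of 16 skeletal muscle markers 3 rose and none fell in limma. At an unadjusted p below 0.05, 6 were higher and 0 lower, beside 3867 higher and 2515 lower of all 18710 genes. The summed intensity of the list was 1642 to 1881 in homozygous spleens and overlapped with 1537 to 2034 in heterozygous spleens. With the Y-linked covariate, or after cyclic loess, 1 of the muscle markers was called. The muscle genes that rose most, Chrna1 (0.44) and Chrng (0.33), encode acetylcholine receptor subunits. Chrna1 was dim, with a mean intensity of 49.1 in homozygous and 36.0 in heterozygous spleens. Of 17 kidney and urogenital markers 5 rose, 2 fell and 10 did not pass. Osr1 (0.66) and Sox9 (−0.76) had the largest changes among them. The summed intensity of the list was 2800 to 2943 in homozygous and 2255 to 2398 in heterozygous spleens. Most of this difference came from Osr1, the brightest of the list, with a mean of 1214 in homozygous and 769 in heterozygous spleens. The sum thus does not show a rise of the list as a whole. Without homozygous replicate 1, 3 of the kidney markers were called. Gdnf, Sall1, Osr1 and Wnt4 stand on both this list and the list of targets.

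Markers of other cell types were counted as well. Endothelium markers fell for 11 of 15, with a summed intensity of 8054 to 8854 in homozygous and 11011 to 11318 in heterozygous spleens, Tek (−0.85) and Cd34 (−0.76) most of all. With the Y-linked covariate the count was 6, as it was without homozygous replicate 1. Erythroid markers fell for 5 of 11 (2152 to 2411 in homozygous and 3147 to 3579 in heterozygous spleens), with Hbb-bh1 (−1.06) and Rhag (−0.91) in front. With the Y-linked covariate the count was 3, as it was without homozygous replicate 1 and without homozygous replicate 3, and it was 8 after median centring and with the replicate block. Enteric neuron and glia markers rose for 7 of 13 (2563 to 2745 in homozygous and 1901 to 1995 in heterozygous spleens), led by Stmn2 (0.81) and Sox10 (0.57). Epithelium and pancreas markers rose for 5 of 15 (6255 to 9716 in homozygous and 4170 to 4719 in heterozygous spleens), led among called genes by Cpa1 (1.77) and Cldn6 (0.88). The count was 2 without heterozygous replicate 2, homozygous replicate 1 or homozygous replicate 3, 3 without heterozygous replicate 3, and 8 without homozygous replicate 2, with a variance trend and with the replicate block. Gcg, the glucagon gene, named after its values were seen, had the highest estimate of all genes (2.28) without passing, at 3751, 761 and 2728 on the homozygous arrays, against 97.99, 659 and 1032 on the heterozygous arrays. Without Gcg the summed intensity was 5495 to 5965 in homozygous and 3417 to 4621 in heterozygous spleens. Smooth muscle markers rose for 3 of 11 and fell for 1 (2924 to 3213 in homozygous and 2549 to 2925 in heterozygous spleens), with Des (0.64) and Synpo2 (−0.46) as the largest changes. Among the marker genes named here, Chrng, Sox10, Cpa1, Cldn6 and Rhag lost their calls under 1 or more other settings (adjusted p up to 0.132). No listed marker was at 0 on any array, and the part of these cell types in the values of Eya1, Eya2 and the network genes was not tested.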

How the data were processed

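The authors deposited 1 intensity per probe set and array on a linear scale, and per the submitters' processing notes GCRMA was used, which corrects the background, normalizes between arrays and summarises probes. No version or build was given there. Of 35512 probe sets, 21789 had 1 gene symbol in GEO's platform annotation, 1621 had several and 12102 were unnamed. Probe sets with 1 symbol and a log2 value no lower than 4, an intensity of 15, on 3 or more of 6 arrays were kept, and the brightest per gene was used, which gave 18710 genes.

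The model was fitted on log2(intensity + 1) by lmFit and eBayes of limma 3.58.1 under R 4.3.3, homozygous minus heterozygous, with no covariate, and a gene was called at a Benjamini-Hochberg adjusted p below 0.05 over all genes. The steps were tested on simulated data. Members, lists and settings were chosen with earlier results of these data known. Named genes were all members, up to 4 called genes per network list and 2 per marker list with the largest change, the 5 genes nearest Eya1 in profile and its 3 neighbours on each side. Alternatives changed the filter, the added value, the probe set, the normalization, the variance model, a Y-linked covariate, the replicate block and the arrays used. Same-numbered arrays did not deviate together (r = −0.01, 0.04 and −0.11), which cannot exclude that the samples were paired. The labels do not say whether they were, and the main fit took them as unpaired. Replicate number and array count limit the precision, and scan dates were not analysed here.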

Additional observations from a re-analysis of the deposited data

How the results depend on the processing

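Eya1 stayed past the threshold under all 19 other settings, at −2.02 to −1.84, and Eya2 under 16. The family was chosen by the fall of Eya1 on these same arrays, so its place past the threshold is no separate support. The count of members called was 2, with 1 to 3 in refits without 1 array, 4 with 16 added before the logarithm and 4 with array weights, where Six2 and Six4 were also called. Six2 also passed with a variance trend and, at 0.58, without heterozygous replicate 3. All genes called numbered 3178, 1198 to 3563 in refits without 1 array, and 1647 with the Y-linked covariate. Fewer arrays enter those refits. With the replicate block 3163 genes and 2 members were called. The sign of Eya4 changed to 0.039 after quantile normalization, 0.054 with the Y-linked covariate and 0.0038 after cyclic loess, and ranged from −0.10 to 0.097 in refits without 1 array. Six5 changed to −0.021 with array weights, and ranged from −0.074 (without homozygous replicate 3) to 0.080. Of the neighbours, Msc changed to −0.0036 after quantile normalization and −0.063 after cyclic loess. In refits without 1 array Msc ranged from −0.014 to 0.085, Xkr9 from −0.036 to 0.094 and Gm9947 from −0.0020 to 0.19. The causes were not tested. Of 830 single-gene values under alternatives, 770 kept direction and side of the threshold, 37 lost and 10 gained the call, and 13 changed sign. Dach2, Six6, Chrna1, Xkr9, Gm9947 and Trpa1 were too dim for the stricter filter and could not be fitted under it. The number of arrays, and for dim genes such as Dach2 the low signal, limits these values.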
